A study of Mus musculus with 16 samples.

Results

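The replication-dependent histone genes are the multicopy genes that supply the core histones H2A, H2B, H3 and H4 and the linker histone H1 to newly made DNA. They were taken as the table rows whose symbol starts with Hist1h, Hist2h, Hist3h or Hist4h and whose normalised read count averaged at least 10 over the 8 ribosome-protected fragment (RPF) libraries or over the 8 total RNA libraries. Of 21977 gene rows, 68 had such a symbol and 62 met the threshold, 60 of them in both assays. Hist2h3c2 and Hist3h2a met it in total RNA only. The members comprised 6 genes of H1, 16 of H2A, 17 of H2B, 11 of H3 and 12 of H4, with 52 in the Hist1 cluster, 7 in Hist2, 2 in Hist3 and 1 in Hist4. Just inside the threshold were Hist2h3c2, at a mean of 21.1 in total RNA, and Hist2h2be, at 10.3 in RPF and 39.4 in total RNA. Just outside was Hist1h4m, at 5.23 in RPF and 1.38 in total RNA.

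The libraries came from mouse embryonic stem cell (ESC) lines grown with leukaemia inhibitory factor (LIF) in standard ESC medium on gelatin. The groups were 3 Nat1-/- (null) lines (B12, B2 and C3, replicates 1, 2 and 3), 3 Nat1+/- (heterozygous) lines (A7, B4 and C1, replicates 1, 2 and 3) and 2 cultures of the wild-type line RF8 (WT, replicates 1 and 2). Nat1, now named Eif4g2 and also known as DAP5 or p97, encodes a relative of the translation initiation scaffold eIF4G that lacks the part that binds the cap-binding protein eIF4E. Each culture gave an RPF library, the mRNA pieces covered by ribosomes, and a total RNA library. The Nat1-/- and Nat1+/- replicates are separate lines, whereas both WT replicates are RF8, so the spread among WT replicates includes no difference between lines.

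Histone mRNAs of this kind are made in S phase, when DNA is copied. They end in a conserved stem-loop in place of a poly(A) tail, and the stem-loop binding protein SLBP takes part in their processing, translation and decay. The SLBP-interacting protein SLIP1, encoded by Mif4gd, has an eIF4G-like domain and links the histone mRNA end to the initiation machinery. ESCs have a short cell cycle in which S phase takes up much of the time.

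RPF libraries held 17480387 to 23777667 reads and total RNA libraries 13206434 to 42562496 reads, with the 3 deepest total RNA libraries being both WT libraries and Nat1-/- replicate 1. Eif4g2 had 1089, 1114 and 922 normalised reads in RPF of Nat1-/- lines, against 10261, 7608 and 7275 in Nat1+/- lines and 17666 and 13862 in WT. The Nat1-/- values were below all others, and the log2 fold change against Nat1+/- was -2.99 ± 0.17 (SE; limma adjusted p = 1.55e-05). In total RNA the same gene had 12249, 8795 and 5085 in Nat1-/-, 15335, 12092 and 10674 in Nat1+/- and 47932 and 26984 in WT, with a log2 fold change of -0.62 against Nat1+/- (limma adjusted p = 0.137). The summed level of 10 stem cell markers was 187686 to 208668 normalised reads in RPF of Nat1-/-, 113851 to 133896 in Nat1+/- and 93638 to 110710 in WT, and no marker was at 0 in any library. A sum over 12 fibroblast markers was 529 to 946 in RPF of Nat1-/-, 1207 to 3379 in Nat1+/- and 10267 to 17191 in WT. In total RNA it was 428 to 742 in Nat1-/-, 815 to 2038 in Nat1+/- and 4447 to 8652 in WT. Markers at 0 in at least 1 total RNA library numbered 4 of 12 in Nat1-/-, 4 in Nat1+/- and 1 in WT. Single fibroblast markers did not all follow the sum. In Nat1+/- against WT, 3 of 10 tested in RPF and 2 of 9 in total RNA had positive log2 fold changes. Called lower there were 6 in RPF and 5 in total RNA, where 5.13% and 5.41% of genes were.

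Nat1-/- lines held less histone mRNA than Nat1+/- lines in total RNA, in all 5 classes. The members took 0.760%, 0.930% and 0.712% of total RNA reads in the 3 Nat1-/- lines, against 1.23%, 1.20% and 1.24% in the Nat1+/- lines and 1.00% and 1.27% in WT. The Nat1-/- shares lay below every Nat1+/- and WT share, at 0.801% ± 0.115 in Nat1-/-, 1.22% ± 0.0233 in Nat1+/- (SD, n = 3 each) and 1.14% ± 0.185 in WT (SD, n = 2). In RPF the shares were 2.45%, 2.11% and 1.62% in Nat1-/-, against 2.22%, 2.33% and 2.29% in Nat1+/- and 3.06% and 2.31% in WT, and the groups overlapped. Sums over members were given no test. In bulk libraries, fewer cells that carry histone mRNA and less histone mRNA per cell cannot be told apart.

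**Figure D1:**
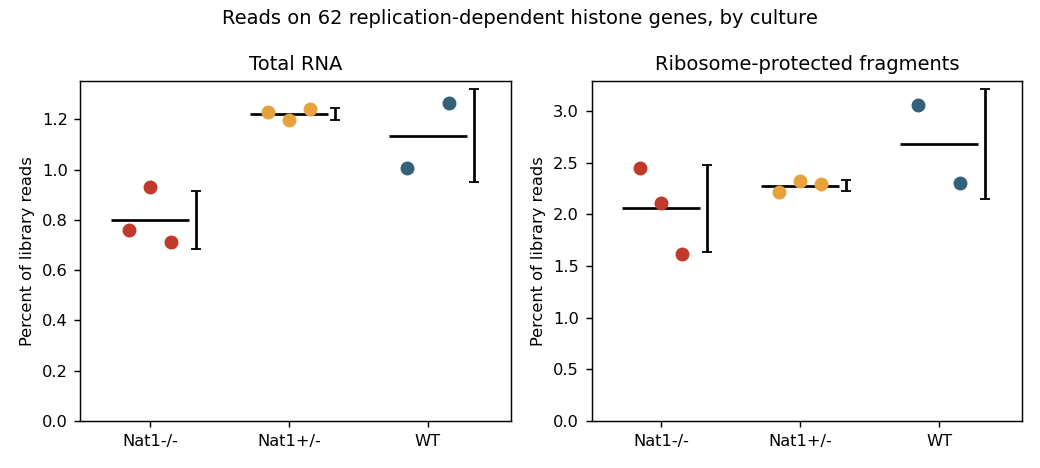
Percent of library reads on the 62 members in total RNA (left) and RPF (right), 1 point per culture, with the group mean (line) and SD (bar beside it). In total RNA the 3 Nat1-/- lines sit between 0.712% and 0.930%, below all other cultures, while in RPF the genotypes overlap.

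Single genes were tested on log2(value + 1) with limma over all genes of an assay, and a gene is called when its Benjamini-Hochberg adjusted p is under 0.05. In total RNA, 36 of the 62 members were lower and 1 was higher in Nat1-/- than in Nat1+/- lines, where 20.2% of 13813 genes tested were called lower and 19.8% higher. The log2 fold change was negative for 59 of 62 members, with a median of -0.60 beside 0.01 for all genes tested. For 43 members the 3 Nat1-/- values lay below the 3 Nat1+/- values, against 24.6% of all genes, and for 2 above them, against 25.6%. By class, 5 of 6 H1, 6 of 16 H2A, 10 of 17 H2B, 7 of 11 H3 and 8 of 12 H4 genes were called lower. By cluster, 34 of 52 Hist1 genes were called lower and 1 of 7 Hist2 genes was called, Hist2h2ab, which was higher. The DESeq2 fit on recovered reads called 41 members lower and 2 higher (42.4% of all genes either way), and edgeR called 38 lower and 1 higher (39.1%). Fewer were called lower without a variance trend, at 26 lower and 1 higher (36.2%). With TMM factors 29 were lower and 2 higher (41.1%), and without a filter 31 were lower and 1 higher (28.8%).

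Class sums were lower by similar amounts in total RNA. They do not depend on how counted reads were divided among members of a class, but would lack any reads left uncounted. The mean sum in Nat1-/- lines was 67.5% of that in Nat1+/- lines for H1, 69.3% for H2A, 69.1% for H2B, 63.5% for H3 and 65.2% for H4. Copies within a class are near-identical in their coding parts, and the sources used here do not say how reads matching several copies were counted. Values of single histone genes are therefore uncertain in how they divide a class.

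**Figure D2:**
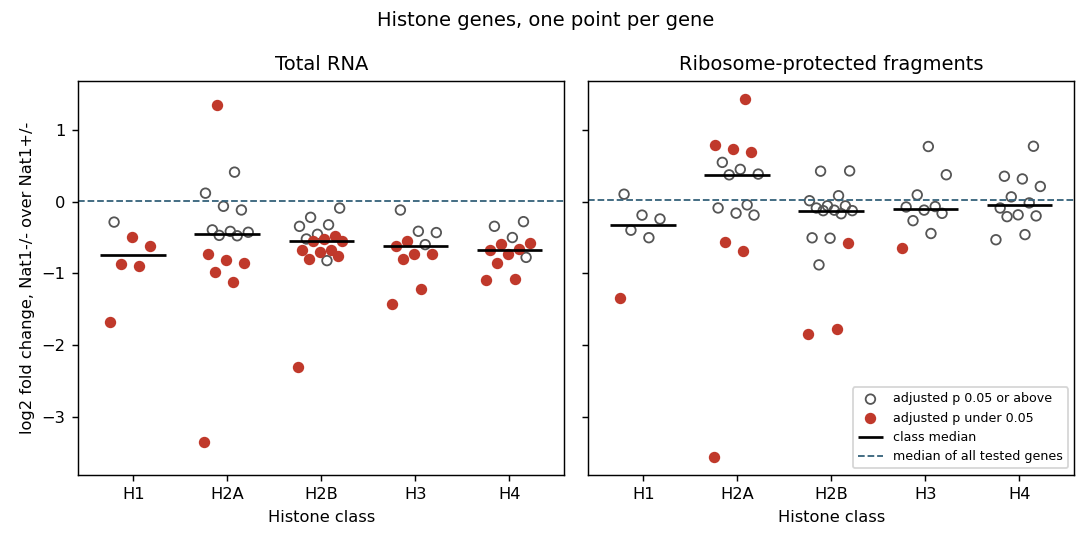
Log2 fold change of Nat1-/- over Nat1+/- for each member by histone class, in total RNA (left) and RPF (right); filled points have an adjusted p under 0.05, the line is the class median and the dashed line the median of all genes tested. Class medians lie between -0.75 and -0.45 in total RNA and between -0.32 and 0.37 in RPF.

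The H1 genes encode linker histones, which bind DNA where it enters and leaves the nucleosome. Hist1h1e had 4559, 4732 and 3565 normalised reads in total RNA of Nat1-/- lines, against 6982, 9406 and 7204 in Nat1+/- lines and 10486 and 9476 in WT. The Nat1-/- values lay below both other genotypes, with a log2 fold change of -0.87 ± 0.16 (SE) against Nat1+/- (limma adjusted p = 0.00212). Hist1h1a had 15247, 14294 and 10171 in Nat1-/- and 25606, 23011 and 24017 in Nat1+/-, again without overlap (log2 fold change -0.89 ± 0.16, limma adjusted p = 0.00217). Hist1h1d, the H1 gene with the most total RNA reads, had 20825, 23784 and 20667 in Nat1-/- and 28984, 23512 and 27110 in Nat1+/-. Its groups overlapped and it was the H1 gene that was not called (log2 fold change -0.28, limma adjusted p = 0.11). The remaining called H1 genes were Hist1h1b at -0.62, Hist1h1c at -0.49 and the testis-type Hist1h1t, described further on.

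H2A and H2B form the dimers that flank the central H3-H4 tetramer of the nucleosome. Hist1h2ak, the H2A gene with the most total RNA reads, had 2483, 3087 and 2728 in Nat1-/- lines, against 5857, 5084 and 5396 in Nat1+/- lines and 3553 and 4338 in WT. Every Nat1-/- value was below every other, and every Nat1+/- value above WT. Its divergently transcribed neighbour Hist1h2bn, an H2B gene, had 787, 1404 and 939 in Nat1-/- and 1974, 1553 and 1630 in Nat1+/-, where Nat1-/- replicate 2 came close to the Nat1+/- range. The log2 fold change of Hist1h2bn was -0.76 ± 0.25 (SE; limma adjusted p = 0.0363). Hist1h2bp, an H2B gene, had 550, 645 and 576 in Nat1-/- and 1158, 1093 and 851 in Nat1+/-, with no overlap (log2 fold change -0.80 ± 0.15, limma adjusted p = 0.00296). Hist2h2bb, the H2B gene with the most total RNA reads, had 6160, 6192 and 5625 in Nat1-/- and 7375, 6783 and 8760 in Nat1+/-. Its groups did not overlap, yet the fold change of -0.34 was not called (limma adjusted p = 0.123).

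H3 and H4 form the tetramer at the centre of the nucleosome, and their tails carry many of the marks that regulate chromatin. Hist1h3i had 807, 1232 and 853 normalised reads in total RNA of Nat1-/- lines, against 2666, 2443 and 2536 in Nat1+/- lines and 1496 and 1907 in WT. The order was thus Nat1-/- lowest, WT between and Nat1+/- highest, with no overlap between neighbours. Hist1h3d, another H3 gene, had 1088, 1597 and 954 in Nat1-/- and 2583, 2780 and 2917 in Nat1+/- (log2 fold change -1.22 ± 0.20 SE, limma adjusted p = 0.0015). In Hist1h3d the WT values of 1373 and 2021 overlapped those of Nat1-/-. Hist1h3a, the H3 gene with the most total RNA reads, fell by 0.72 on the log2 scale (limma adjusted p = 0.0283), a call lost under 5 of 18 alternatives (adjusted p 0.011 to 0.0821), among them leaving out Nat1-/- replicate 1 or 3 or Nat1+/- replicate 1 or 3.

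Among the H4 genes, Hist1h4i had 1346, 1760 and 1333 in Nat1-/- lines, against 3110, 3117 and 3033 in Nat1+/- lines and 1720 and 2441 in WT. The Nat1+/- lines agreed closely with each other and stood above both other genotypes. Its log2 fold change against Nat1+/- was -1.07 ± 0.16 (SE; limma adjusted p = 0.000864). Hist1h4k had 956, 1132 and 798 in Nat1-/- and 1474, 1627 and 1636 in Nat1+/-, also without overlap (log2 fold change -0.73 ± 0.15, limma adjusted p = 0.00377). Hist1h4d, the H4 gene with the most total RNA reads, had 6013, 7188 and 4503 in Nat1-/- and 8917, 8758 and 9770 in Nat1+/-. Its fold change of -0.66 was called in the fit of all cultures (limma adjusted p = 0.0362) and lost under 7 of 18 alternatives (adjusted p 0.0164 to 0.0989), among them leaving out Nat1-/- replicate 3 or any 1 of the Nat1+/- lines.

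The lowest log2 fold changes in total RNA were those of Hist1h2aa, Hist3h2ba and Hist1h1t. Hist1h2aa and Hist1h2ba encode TH2A and TH2B, core histones known from male germ cells and early embryos, and Hist1h1t encodes the testis linker histone H1t. Hist1h2aa had 29.5, 30.6 and 19.4 normalised reads in total RNA of Nat1-/- lines, against 155, 580 and 228 in Nat1+/- lines and 371 and 482 in WT. In RPF it had 70.2, 40.9 and 12.5 in Nat1-/-, against 221, 778 and 380 in Nat1+/- and 819 and 714 in WT. The Nat1-/- values were lowest in both assays, and within Nat1+/- replicate 2 was highest. The log2 fold change against Nat1+/- was -3.35 ± 0.42 in total RNA and -3.56 ± 0.58 in RPF (SE; limma adjusted p = 0.000352 and 0.00181).

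Hist1h2ba, which lies head to head with Hist1h2aa, was called lower in RPF and not in total RNA. Its RPF values were 369, 245 and 152 in Nat1-/- lines, against 730, 933 and 824 in Nat1+/- lines and 771 and 771 in WT, a gap with no overlap (log2 fold change -1.78 ± 0.27 SE, limma adjusted p = 0.00129). Its total RNA values were 284, 281 and 234 in Nat1-/-, 289, 589 and 324 in Nat1+/- and 342 and 494 in WT. The Nat1-/- values were lowest there too, but the difference from Nat1+/- was not called (log2 fold change -0.52, limma adjusted p = 0.147). Hist1h1t had 50.7, 91.9 and 157 in total RNA of Nat1-/-, against 225, 534 and 201 in Nat1+/- and 264 and 307 in WT, with no overlap (log2 fold change -1.67 ± 0.44, limma adjusted p = 0.0129). In RPF Hist1h1t was lower by a log2 fold change of -1.34 ± 0.32 (SE; limma adjusted p = 0.0099).

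Hist3h2ba, an H2B gene of the Hist3 cluster, had 112, 115 and 273 normalised reads in total RNA of Nat1-/- lines, against 529, 1186 and 691 in Nat1+/- lines and 1069 and 1261 in WT. The groups did not overlap, and the log2 fold change against Nat1+/- was -2.31 ± 0.37 (SE; limma adjusted p = 0.00112). In RPF it had 201, 147 and 211 in Nat1-/-, 422, 1028 and 670 in Nat1+/- and 1753 and 1069 in WT (log2 fold change -1.84 ± 0.32, limma adjusted p = 0.00224). Within Nat1+/-, replicate 2 held the highest values of Hist1h2aa, Hist1h2ba, Hist1h1t and Hist3h2ba in both assays. The same line held the highest fibroblast marker sum of the Nat1+/- lines, at 3379 in RPF and 2038 in total RNA. The part of the fibroblast markers in these differences was not tested.

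**Figure D3:**
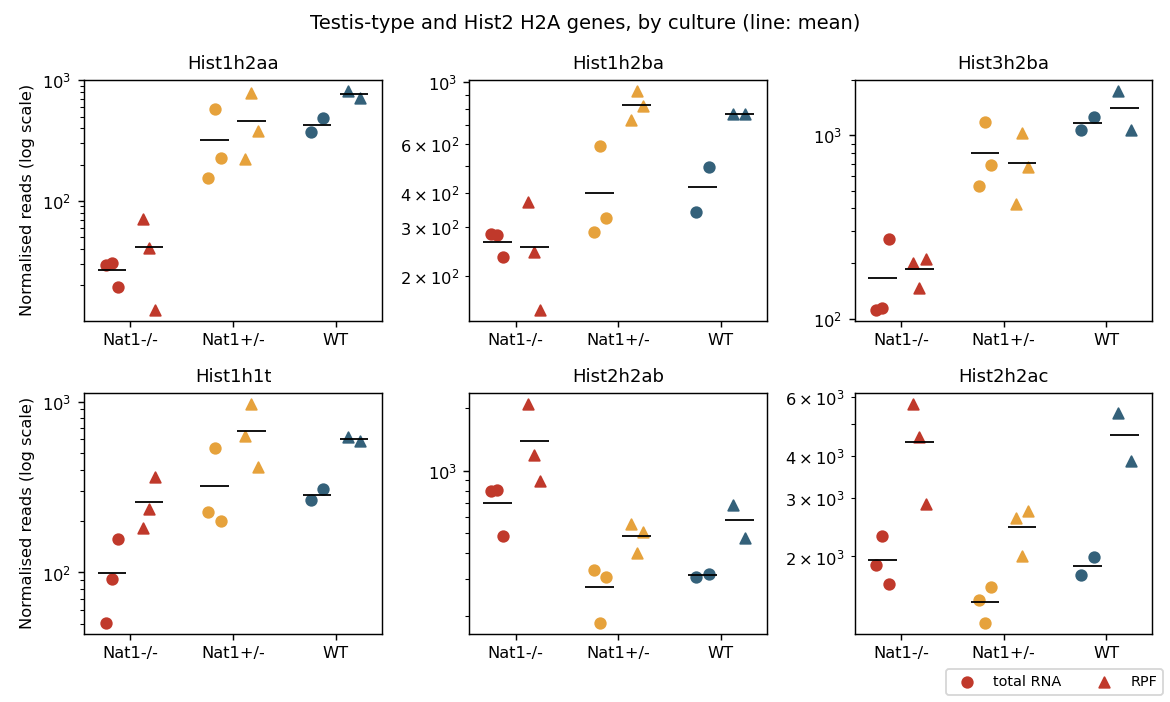
Normalised reads of 6 members by genotype on a log axis, 1 point per culture, with circles for total RNA, triangles for RPF and a line at each group mean. Hist1h2aa, Hist3h2ba, Hist1h1t and Hist1h2ba are lowest in Nat1-/- in both assays, while Hist2h2ab is highest in Nat1-/- in both. The total RNA difference of Hist1h2ba from Nat1+/- was not called.

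Hist2h2ab, an H2A gene of the Hist2 cluster, was the member called higher in total RNA. It had 801, 806 and 482 normalised reads in Nat1-/- lines, against 332, 184 and 305 in Nat1+/- lines and 306 and 319 in WT. All 3 Nat1-/- values lay above the other genotypes, with a log2 fold change of 1.35 ± 0.26 against Nat1+/- (SE; limma adjusted p = 0.00324). In RPF it had 2099, 1184 and 891 in Nat1-/-, 554, 400 and 505 in Nat1+/- and 679 and 473 in WT (log2 fold change 1.43 ± 0.29, limma adjusted p = 0.0049). Hist2h2ac, the neighbouring H2A gene, had 5726, 4562 and 2874 in RPF of Nat1-/-, against 2613, 2013 and 2733 in Nat1+/- and 5358 and 3869 in WT. Nat1-/- exceeded Nat1+/- without overlap and overlapped WT (log2 fold change 0.79 ± 0.25 against Nat1+/-, limma adjusted p = 0.0313). This call of Hist2h2ac was lost under 6 of 18 alternatives (adjusted p 0.00288 to 0.109), among them leaving out replicate 1 or 2 of either genotype, and its total RNA fold change of 0.41 was not called (limma adjusted p = 0.0565).

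Promoter sequences of RefSeq (GRCm38.p6; 250 bases before and 50 after the start) show how these genes share and differ in short promoter words. Of the 62 members, 54 matched a single promoter in a table of 32851 promoters. The words were searched on both strands, so that a match on the other strand appears as its reverse complement, and none was tested for binding. The CCAAT word, known from many promoters of cell cycle genes, occurred in 85.2% of member promoters and 37.4% of all promoters. It was in every H1, H2A, H2B and H3 promoter matched and in 3 of 11 H4 promoters. TATAAA, the word at which the basal machinery can assemble, occurred in 61.1% against 13.6%. ATTTGCAT, the octamer bound by POU factors, occurred in 24.1% against 1.74%, in 7 of 14 H2A and 6 of 14 H2B promoters and in 0 of the 26 others. Promoters of 8 H2A-H2B pairs overlap by 220 to 279 bases, so 1 site can count for both genes of a pair. AAACACA, known as the H1 box, occurred in 16.7% against 7.18%, and in 5 of 6 H1 promoters. The promoters of the lowest and highest genes and of 1 gene each of H1, H3 and H4 are given 5′ to 3′ on the strand of the gene, with matches to the 4 words in capitals.
Hist1h2aa (chr13:23934187-23934486, plus strand): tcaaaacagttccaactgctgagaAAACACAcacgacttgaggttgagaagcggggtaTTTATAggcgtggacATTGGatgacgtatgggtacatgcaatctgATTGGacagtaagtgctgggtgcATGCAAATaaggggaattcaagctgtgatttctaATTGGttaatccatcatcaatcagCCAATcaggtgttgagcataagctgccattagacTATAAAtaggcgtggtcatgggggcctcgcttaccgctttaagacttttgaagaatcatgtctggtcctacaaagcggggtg
Hist3h2ba (chr11:58948661-58948960, plus strand): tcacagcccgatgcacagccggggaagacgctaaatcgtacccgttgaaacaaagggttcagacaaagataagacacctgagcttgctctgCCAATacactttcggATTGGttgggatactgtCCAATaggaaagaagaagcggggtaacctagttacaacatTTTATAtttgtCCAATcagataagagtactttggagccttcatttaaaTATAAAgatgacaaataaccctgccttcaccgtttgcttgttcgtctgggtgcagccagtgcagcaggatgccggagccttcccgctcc
Hist1h1e (chr13:23622509-23622808, minus strand): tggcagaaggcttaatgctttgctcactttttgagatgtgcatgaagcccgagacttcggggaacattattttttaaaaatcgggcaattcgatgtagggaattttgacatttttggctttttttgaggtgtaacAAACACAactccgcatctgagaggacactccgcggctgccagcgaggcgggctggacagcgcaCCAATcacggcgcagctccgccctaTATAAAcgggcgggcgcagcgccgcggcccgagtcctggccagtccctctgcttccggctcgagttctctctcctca
Hist1h3i (chr13:21783348-21783647, minus strand): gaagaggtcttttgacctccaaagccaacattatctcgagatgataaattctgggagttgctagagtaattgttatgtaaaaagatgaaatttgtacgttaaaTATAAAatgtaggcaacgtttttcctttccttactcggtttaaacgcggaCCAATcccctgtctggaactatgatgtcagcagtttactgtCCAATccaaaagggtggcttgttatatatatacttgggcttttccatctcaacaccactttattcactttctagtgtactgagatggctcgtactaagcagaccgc
Hist1h4i (chr13:22041313-22041612, minus strand): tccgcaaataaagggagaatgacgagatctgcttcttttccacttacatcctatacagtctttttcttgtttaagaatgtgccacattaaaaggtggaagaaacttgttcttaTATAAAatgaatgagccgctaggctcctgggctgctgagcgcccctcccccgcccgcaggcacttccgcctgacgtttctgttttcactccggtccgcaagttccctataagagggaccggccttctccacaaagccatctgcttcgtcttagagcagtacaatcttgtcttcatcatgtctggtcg
Hist2h2ab (chr3:96219635-96219934, plus strand): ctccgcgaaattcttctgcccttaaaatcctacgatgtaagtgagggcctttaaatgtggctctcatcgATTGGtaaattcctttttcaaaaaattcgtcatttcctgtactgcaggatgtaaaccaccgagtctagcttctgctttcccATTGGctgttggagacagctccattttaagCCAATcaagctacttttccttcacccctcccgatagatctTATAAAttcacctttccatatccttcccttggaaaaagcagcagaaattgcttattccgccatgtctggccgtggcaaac
Hist2h2ac (chr3:96220831-96221130, minus strand): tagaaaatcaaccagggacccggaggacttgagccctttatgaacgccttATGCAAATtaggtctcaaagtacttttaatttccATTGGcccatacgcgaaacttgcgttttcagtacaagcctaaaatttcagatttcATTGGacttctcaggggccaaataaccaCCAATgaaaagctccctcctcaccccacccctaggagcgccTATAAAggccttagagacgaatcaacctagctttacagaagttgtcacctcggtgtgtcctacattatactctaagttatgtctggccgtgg

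The Hist1h2aa stretch overlaps that of Hist1h2ba by 220 bases, and Hist1h2ak and Hist1h2bn share 263 bases in the same head-to-head arrangement. There were 8 such H2A-H2B pairs among the 54 members with a single promoter, and members without one were not searched. In total RNA both genes of a pair were called lower in 2 pairs, 1 gene in 4 pairs and neither in 2 pairs. Of all 62 members 36 were called lower, and of all genes tested 20.2%. Agreement within pairs was not tested. Hist1h2aa and Hist1h2ba thus had total RNA fold changes of -3.35 and -0.52 across a shared stretch, and Hist1h2ad and Hist1h2bf, with 273 bases shared, had -0.73 (called) and -0.09 (not called). Of the 4 genes called higher in RPF of Nat1-/-, Hist2h2ab, Hist2h2ac and Hist1h2ah each held 3 CCAAT words and 1 TATAAA word, and Hist1h2af held 2 CCAAT words and no TATAAA word. The octamer was in Hist2h2ac and Hist1h2ah.

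In RPF fewer members were called between Nat1-/- and Nat1+/- lines than in total RNA. Of 60 members tested, 8 were called lower and 4 higher, where 18.6% of 13110 genes were called lower and 17.6% higher, and the median log2 fold change was -0.10 beside 0.02 for all genes. The fold change was negative for 39 members and positive for 21, being negative for 5 of 6 H1, 7 of 15 H2A, 13 of 17 H2B, 7 of 10 H3 and 7 of 12 H4 genes, where 6366 of the 13110 genes were negative. The Nat1-/- values lay below all Nat1+/- values for 10 members and above them for 4, against 23.5% and 24.6% of genes. Mean class sums in Nat1-/- were 87.8% of those in Nat1+/- for H1, 109% for H2A, 97.4% for H2B, 95.5% for H3 and 102% for H4. The 4 genes called higher were all of H2A, namely Hist2h2ab, Hist2h2ac, Hist1h2ah and Hist1h2af. Besides the genes of the testis and Hist3 types, those called lower were Hist1h2ak (-0.69), Hist1h2ae (-0.56), Hist1h2bn (-0.57) and Hist1h3i (-0.65).

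Hist1h3i had 5129, 5755 and 5621 normalised reads in RPF of Nat1-/- lines, against 9040, 8232 and 8581 in Nat1+/- lines and 8984 and 6841 in WT. The Nat1-/- lines were lowest and close to each other (log2 fold change -0.65 ± 0.14 SE against Nat1+/-, limma adjusted p = 0.00611). Hist1h2af, an H2A gene, had 8477, 8577 and 5493 in Nat1-/-, against 4881, 4229 and 4599 in Nat1+/- and 7153 and 6027 in WT. It exceeded Nat1+/- without overlap in RPF (log2 fold change 0.69 ± 0.18, limma adjusted p = 0.0163; lost without Nat1+/- replicate 2 or Nat1-/- replicate 2) and overlapped it in total RNA, at 1357, 1158 and 601 in Nat1-/- and 1035, 773 and 921 in Nat1+/-. Hist1h2ah was higher by 0.74 ± 0.25 (SE; limma adjusted p = 0.0398), a call lost under 10 of 18 alternatives (adjusted p 0.0173 to 0.142), among them leaving out Nat1-/- replicate 1 or 2 or Nat1+/- replicate 1 or 3. Hist1h2ak was no longer called lower with Nat1-/- replicate 2 or Nat1+/- replicate 1 left out (highest adjusted p 0.0654).

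The Nat1-/- lines differed among themselves in RPF. Relative to each gene's mean over the 8 cultures, the median member stood at 0.22 log2 units in Nat1-/- replicate 1, -0.01 in replicate 2 and -0.50 in replicate 3, where 55 of 60 members were below their mean. The Nat1+/- lines stood at -0.10, 0.05 and 0.00, and the WT cultures at 0.44 and 0.02. The count of calls depended on the lines included. Without Nat1-/- replicate 3, 11 members were called higher and 7 lower and the median was 0.12, where 41.5% of all genes were called either way. Without Nat1-/- replicate 1, 2 were called higher and 13 lower and the median was -0.25, where 32.6% of genes were called. Without Nat1+/- replicate 1, 2 were higher and 5 lower (28.3% of genes called), and without Nat1-/- replicate 2, 1 was higher and 5 lower (21.4%). In each of these fits the share of members called was below that of all genes. In total RNA the calls were 24 to 39 lower and 1 to 3 higher with any 1 of the 6 lines left out, where 25.9% to 45.1% of genes were called either way, and the median stayed between -0.73 and -0.53.

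**Figure D4:**
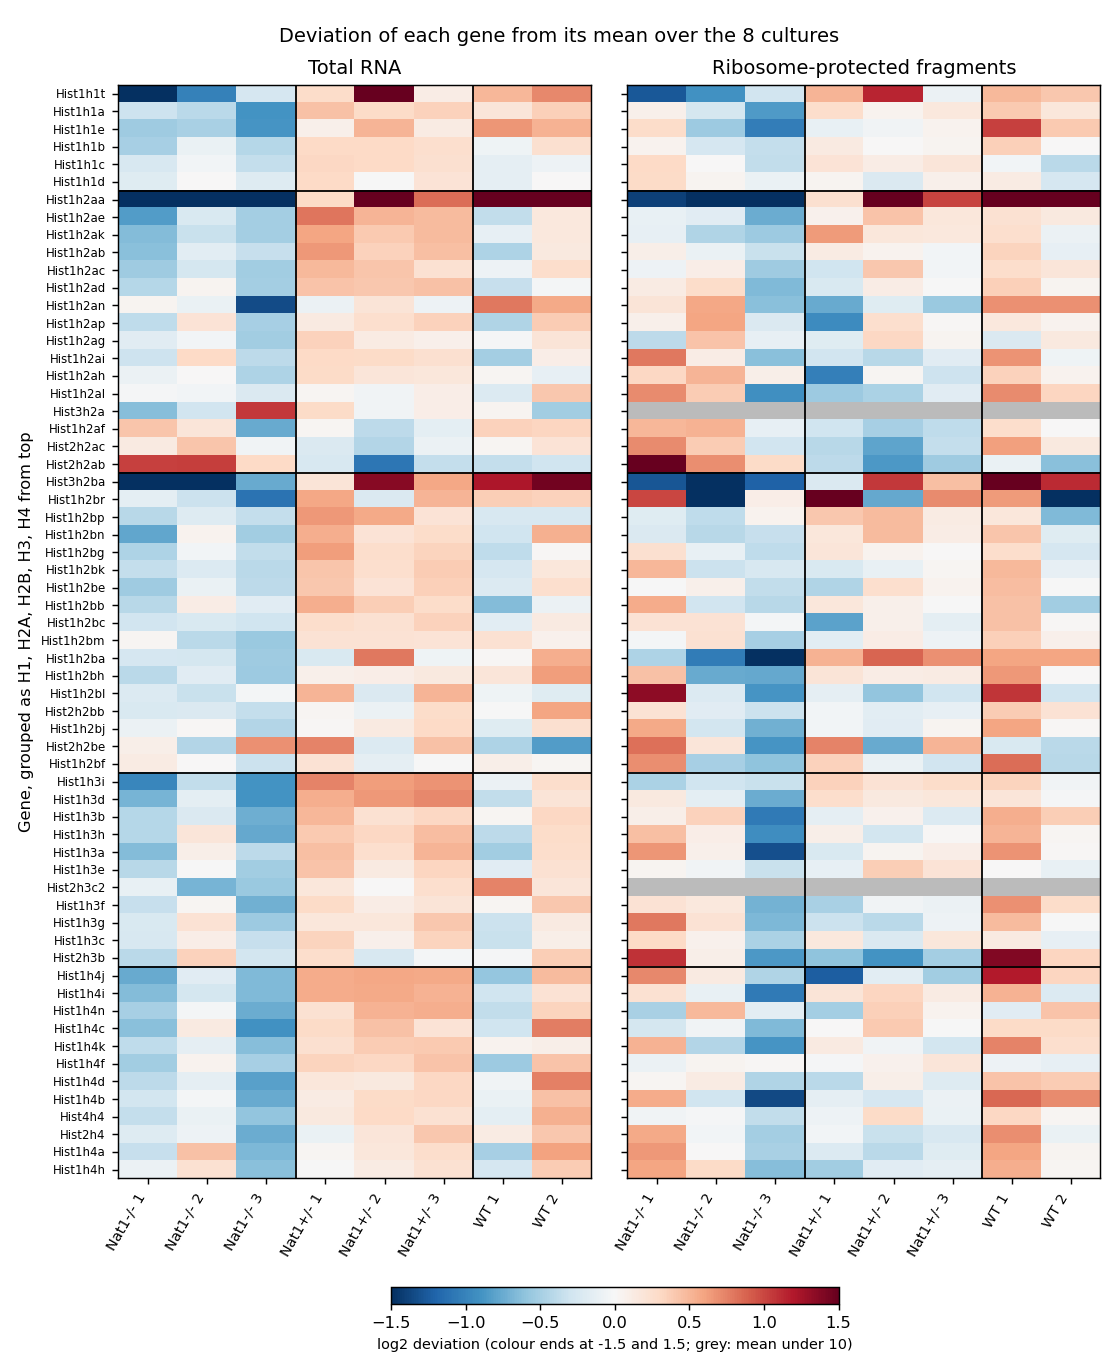
Deviation of log2(value + 1) from the gene's mean over the 8 cultures for each member (rows, grouped by class and ordered by total RNA fold change) in total RNA (left) and RPF (right). Most rows are below their mean in the 3 Nat1-/- columns of total RNA, while in RPF Nat1-/- replicate 3 is low (median -0.50) and WT replicate 1 high (median 0.44).

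Translational efficiency (TE, RPF relative to total RNA) was high for histone genes in every culture, on the scale of log2 RPF over total RNA with each assay normalised on its own. The member median lay between 0.60 and 1.58 in the 8 cultures, and the median of all 12933 genes tested between -0.40 and -0.35. Of 60 members, 57 exceeded the median gene and 41 lay above the 90th percentile of all genes. Hist1h2ag, an H2A gene, had a ratio of 7.47, at percentile 99.97 of all genes, and Hist1h2af a ratio of 5.87. At the low end were Hist2h2be, an H2B gene with a ratio of 0.273, and Hist1h2ad, an H2A gene with 0.459. Transcript lengths were not used, so the ratio sets footprints against RNA reads over whatever gene model the authors counted. Ratios of single genes are also uncertain in how reads of either assay were divided among near-identical copies.

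The difference in TE between genotypes was not called for any member in the fit without a culture term. Against Nat1+/-, 0 of 60 members were called in Nat1-/- (0.58% of genes were called either way by limma). By limma 13 members had an unadjusted p under 0.05, as had 1356 of 12933 genes. The edgeR fit called 0 (0.487% of genes) and DESeq2 called 4 higher (2.99% of genes were called either way). The median log2 TE change was 0.54 beside 0.01 for all genes, 55 of 60 changes were positive, and 29 members had Nat1-/- values above all Nat1+/- values, against 18.5% of genes (1 member lay below, against 18.4%). The smallest adjusted p values were those of Hist1h4j (log2 TE change 1.87 ± 0.48 SE, limma adjusted p = 0.1), Hist1h2bc (0.98 ± 0.26, limma adjusted p = 0.109) and Hist1h2ah (1.13 ± 0.30, limma adjusted p = 0.116). The RPF and total RNA library of a culture come from the same cells, and with a term for the culture 11 members were called higher and 1 lower, where 6.49% of genes were called higher and 9.26% lower. The 11 were 5 H2A, 1 H2B, 2 H3 and 3 H4 genes, and Hist1h2ba was lower (log2 TE change -1.26 ± 0.26 SE, limma adjusted p = 0.00991).

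With the culture term, Hist1h3i was among the higher genes, at a log2 TE change of 0.78 ± 0.18 (SE; limma adjusted p = 0.0151), and Hist1h4n had 0.84 ± 0.17 (limma adjusted p = 0.00865). Hist1h2an, an H2A gene, had the smallest adjusted p, at 1.02 ± 0.16 (limma adjusted p = 0.00303). The count with the culture term was 3 to 21 higher with 1 line left out, lowest without Nat1+/- replicate 1, where 5.85% of all genes were called either way, and highest without Nat1-/- replicate 3, where 22.8% were. The cultures were not alike in their member medians, at 1.58, 0.79 and 0.86 in Nat1-/-, 0.60, 0.67 and 0.70 in Nat1+/- and 1.52 and 0.64 in WT. Nat1-/- replicate 1 and WT replicate 1 thus stood well above the others, and both had total RNA libraries with 42464736 and 42562496 reads. WT replicate 2, with a total RNA library of 33562445 reads, did not. Without Nat1-/- replicate 1 the median log2 TE change against Nat1+/- was 0.28, and the part of library depth in these values was not tested.

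**Figure D5:**
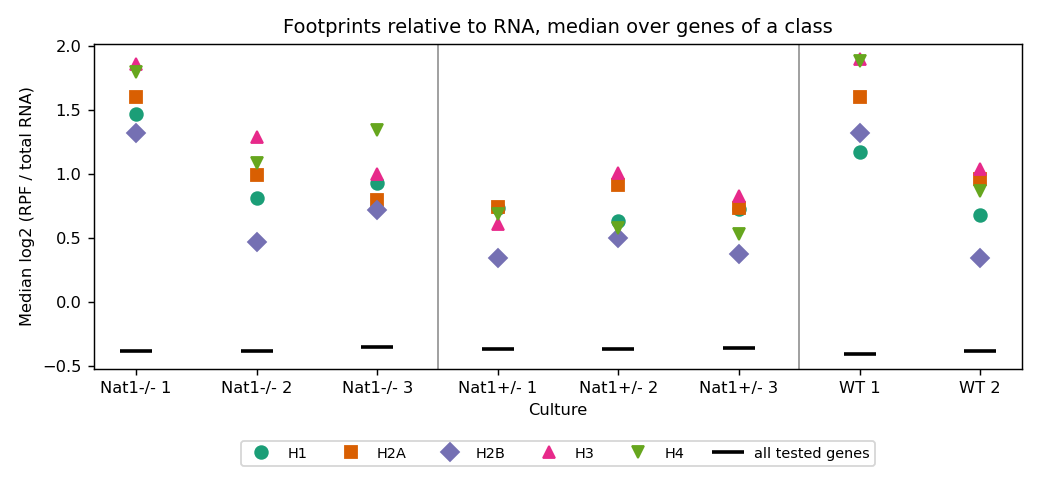
Median log2 ratio of RPF to total RNA over the members of each histone class in each culture, with the median of all genes tested as a bar. All classes lie above the bar in every culture, and Nat1-/- replicate 1 and WT replicate 1 lie highest for every class.

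Comparisons with WT rest on 2 cultures and share samples with the comparison just described. Against WT, 13 of 62 members were lower and 1 was higher in total RNA of Nat1-/- lines, where 18.9% of genes were called lower and 16.2% higher, and the median log2 fold change was -0.38 beside 0.02 for all genes. In RPF, 7 of 60 were lower and 1 higher, where 18.3% of genes were called lower and 16.5% higher, and the median was -0.33. The H1 gene Hist1h1e was lower in both, at -1.23 ± 0.18 in total RNA (SE; limma adjusted p = 0.000611) and -1.14 ± 0.33 in RPF (limma adjusted p = 0.0235). Hist1h2aa was at -3.97 in total RNA and -4.48 in RPF, Hist3h2ba at -2.93 and -2.89, and Hist1h2ba at -1.68 in RPF, all called lower. Hist2h2ab was the gene called higher, at 1.12 ± 0.29 in total RNA and 1.20 ± 0.32 in RPF (SE; limma adjusted p = 0.0148 and 0.0178), and both calls were lost without WT replicate 2, the total RNA call also without WT replicate 1 or Nat1-/- replicate 2. The total RNA count was 3 lower and 0 higher without WT replicate 2 (19.4% of all genes called; 9 members at an unadjusted p under 0.05 by limma). In RPF 4 members were called without WT replicate 1 (14.7% of all genes called), 5 without Nat1-/- replicate 2 (23.5%) and 17 without Nat1-/- replicate 1 (38.9%). The median in total RNA was -0.15 without WT replicate 2 and -0.60 without WT replicate 1. In RPF it was -0.55 without WT replicate 2, -0.16 without WT replicate 1, -0.51 without Nat1-/- replicate 1 and -0.10 without Nat1-/- replicate 3.

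Between Nat1+/- lines and WT few members were called, and the counts depended on the fit. In total RNA 2 of 62 members were called, both higher, where 4.6% of genes were called higher and 5.41% lower. The log2 fold change was positive for 44 of 62 members, with a median of 0.23 that was 0.04 without WT replicate 1 and 0.35 without WT replicate 2. For 21 members the Nat1+/- values lay above both WT values, against 26% of all genes, and for 5 below them, against 28.6%. A fit of these 2 genotypes only called 12 members in total RNA and 10 in RPF (20% and 20.1% of genes), and DESeq2 called 11 and 5 (18.5% and 19.2% of genes). The 2 genes called in total RNA by the fit of all cultures were the H2B genes Hist1h2bp (0.72 ± 0.17 SE, limma adjusted p = 0.0307) and Hist1h2bb (0.77 ± 0.20, limma adjusted p = 0.04). In RPF that fit called 1 of 60, lower, where 5.13% of genes were called lower and 5.35% higher. That gene was Hist1h2an, with 563, 838 and 647 normalised reads in Nat1+/- and 1529 and 1534 in WT (log2 fold change -1.18 ± 0.31 SE, limma adjusted p = 0.0408). These 3 calls were lost with either WT culture left out or without Nat1+/- replicate 1 (highest adjusted p 0.24 for Hist1h2bp, 0.353 for Hist1h2bb and 0.292 for Hist1h2an). In TE without a culture term no member was called in Nat1-/- or in Nat1+/- against WT, where 0.00773% and 0% of genes were called. By limma 1 and 7 members had an unadjusted p under 0.05, as had 328 and 663 of 12933 genes. Neither edgeR (0% of genes in both) nor DESeq2 (0.302% and 0.101%) called a member. With the culture term 0 members were called in either comparison, where 1.22% and 1.13% of genes were. There 3 and 22 members had an unadjusted p under 0.05 by limma. The TE change of Nat1+/- against WT was negative for 54 of 60 members. The median TE changes were 0.06 for Nat1-/- and -0.49 for Nat1+/- against WT, and the Nat1+/- value was -0.07 without WT replicate 1 and -0.86 without WT replicate 2. The Nat1-/- value was 0.45 without WT replicate 1 and -0.38 without WT replicate 2.

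Lists of genes that make, process and use histone mRNA were compared between Nat1-/- and Nat1+/- lines, where of all genes tested 19.8% were called higher and 20.2% lower in total RNA, and 17.6% higher and 18.6% lower in RPF. Of 8 genes for histone gene transcription, 3 were called in total RNA (37.5%) and 2 in RPF (25%), all higher. Npat, the cyclin E-CDK2 target that activates histone transcription, had 2180, 2499 and 2668 normalised reads in RPF of Nat1-/- and 1604, 1881 and 1777 in Nat1+/-, without overlap (log2 fold change 0.48 ± 0.13 SE, limma adjusted p = 0.0208; lost without Nat1-/- replicate 2 or Nat1+/- replicate 1 or 3). In total RNA Npat was at 0.31 (limma adjusted p = 0.0498), a call lost under 15 of 18 alternatives, among them leaving out any 1 of the 6 lines (adjusted p 0.0208 to 0.153). Yy1 (0.67) and Cdk2 (0.60) were higher in total RNA and Ccne2 (0.66), which encodes a cyclin E, in RPF. The call of Ccne2 was lost under 9 of 18 alternatives, among them leaving out Nat1-/- replicate 1 or 2 or any 1 of the Nat1+/- lines (adjusted p 0.0148 to 0.132). Casp8ap2, a factor of the histone locus body also called FLASH, was not called, at 0.04 in RPF and 0.00 in total RNA (limma adjusted p = 0.822 and 0.98).

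Of 11 genes for histone mRNA 3′ processing, 1 was higher and 1 lower in total RNA (18.2% called), and in RPF 1 was called, higher (9.09%), shares below those of all genes. Slbp itself had 4644, 4016 and 2579 normalised reads in total RNA of Nat1-/- and 3429, 3242 and 3646 in Nat1+/-, overlapping groups with no call (log2 fold change 0.08, limma adjusted p = 0.76). Its RPF fold change of 0.29 was not called either (limma adjusted p = 0.21). Zfp473, whose human counterpart ZNF473 works with the U7 snRNP that cuts histone pre-mRNA, had 2016, 2048 and 1876 in total RNA of Nat1-/- and 1176, 1104 and 1316 in Nat1+/-, without overlap (log2 fold change 0.73 ± 0.12 SE, limma adjusted p = 0.00149). In RPF Zfp473 was at 0.86 ± 0.16 (limma adjusted p = 0.00329). Lsm11, a protein of the U7 snRNP, was lower in total RNA at -0.53 (limma adjusted p = 0.0433), a call lost under 11 of 18 alternatives, among them leaving out Nat1-/- replicate 1 or 2 or any 1 of the Nat1+/- lines (adjusted p 0.00325 to 0.163).

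Of 10 genes for histone mRNA translation and decay, 2 were called in total RNA, both higher (20%, near the 19.8% of all genes called higher), and in RPF 2 were higher and 2 lower (40% called, near the 36.1% of all genes called either way). Mif4gd, the SLIP1 gene, had 1705, 1515 and 1285 normalised reads in RPF of Nat1-/- lines, against 824, 872 and 821 in Nat1+/- lines and 1161 and 1193 in WT. The Nat1-/- values were the highest, with a log2 fold change of 0.83 ± 0.14 against Nat1+/- in RPF (SE; limma adjusted p = 0.00182) and 0.70 ± 0.16 in total RNA (limma adjusted p = 0.0064). Ctif, a cap-binding-complex-dependent initiation factor, had 396, 376 and 386 in total RNA of Nat1-/-, against 136, 166 and 130 in Nat1+/- and 168 and 136 in WT. It was higher by 1.43 ± 0.18 in total RNA (limma adjusted p = 0.000379) and by 1.02 ± 0.20 in RPF (limma adjusted p = 0.00448). Eri1, the exonuclease that trims the histone mRNA stem-loop, was lower in RPF at -0.58 ± 0.13 (SE; limma adjusted p = 0.00835) and not called in total RNA (-0.17). Upf1, a helicase of mRNA decay, was lower in RPF at -0.53 ± 0.14 (limma adjusted p = 0.0134; lost without Nat1-/- replicate 2 or Nat1+/- replicate 3, highest adjusted p 0.0648).

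Of 19 histone chaperone genes, 1 was higher and 6 lower in total RNA (36.8% called) and 1 higher and 2 lower in RPF (15.8%), against 40% and 36.1% of all genes called either way. Nasp, the chaperone of the soluble H3-H4 pool, had 14237, 13810 and 14612 normalised reads in total RNA of Nat1-/- and 19950, 20107 and 20870 in Nat1+/-, with no overlap (log2 fold change -0.51 ± 0.11 SE, limma adjusted p = 0.00474). Chaf1b, which encodes a subunit of chromatin assembly factor CAF-1 (-0.75), Rbbp7, which encodes a histone-binding partner of the acetyltransferase Hat1 (-1.12), and the FACT subunit gene Supt16 (-0.71) were also lower in total RNA, and Ipo4, an importin for H3-H4, was higher (0.58). Of 11 replication-independent histone genes, 2 were called in total RNA and 2 in RPF (18.2% each, below the shares of all genes). Both in total RNA were lower, namely H2afy (-0.66) and H2afy2 (-0.64), which encode macroH2A histones. In RPF H2afz, which encodes H2A.Z, was higher (0.83, limma adjusted p = 0.0299) and H2afy2 lower (-0.62; lost without Nat1-/- replicate 2, adjusted p 0.0556). The calls of H2afz in RPF and H2afy in total RNA were each lost under 7 of 18 alternatives, among them leaving out Nat1-/- replicate 1 or 2 or any 1 of the Nat1+/- lines (highest adjusted p 0.104 for H2afz and 0.106 for H2afy). Of 24 genes of DNA replication and S phase, 1 was higher and 5 lower in total RNA and 4 higher and 2 lower in RPF (25% called in each, below the shares of all genes), with medians of -0.06 and 0.02. Those lower included the helicase subunit genes Mcm5 (-0.67) and Mcm6 (-0.47) and the licensing factor gene Cdt1 (-0.66) in total RNA, and E2f2, which encodes an E2F transcription factor, was higher (1.56). The call of Mcm6 was lost without replicate 2 of either genotype (highest adjusted p 0.0789).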

How the data were processed

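A TruSeq ribosome profiling kit gave 1 RPF and 1 total RNA library from each of 8 cultures, per the labels' protocols. What the authors deposited is a signal, namely read counts scaled by a size factor for each library. The submitters' processing notes name DESeq2, the counter HTSeq 0.6.1, the aligners TopHat2 2.1.0 and Bowtie2 2.2.8, the trimmer cutadapt 1.9.1, the demultiplexer bcl2fastq 2.17 and the builds GRCm38.p4 and mm10. How strand, footprint length and reads with several matches were handled was not found in those notes or labels. Whole reads were recovered for 100% of values (tolerance 0.001), and the factors equalled median-of-ratios factors computed within each assay, so a change shared by most genes does not show. Depth was 17480387 to 23777667 reads for RPF and 13206434 to 42562496 reads for total RNA. A count of 0 allows up to 3 reads, at most 4.90 normalised reads, for counting error only.

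Fits used limma 3.58.1 in R 4.3.3 with a variance trend, separately for RPF and total RNA, with a mean for each of 3 genotypes on log2(value + 1), for genes with a mean of at least 10 (13110 in RPF, 13813 in total RNA). The fold change of low genes is understated on this scale. TE was the interaction of assay and genotype over 16 libraries (12933 genes). Calls are two-sided, Benjamini-Hochberg adjusted p under 0.05 over all genes tested. The members and the 8 gene lists were chosen with earlier results of these data known. Named genes are, per class and assay, the 2 smallest adjusted p for Nat1-/- against Nat1+/- and the highest mean total RNA, then members called against the majority, the 3 smallest p for TE and for WT comparisons, up to 4 called genes per list, Slbp, Mif4gd, Npat, Casp8ap2, Eri1 and Eif4g2. Other genes named were chosen after their values were seen.

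Deviations from the genotype mean correlated, across genes, at 0.384 to 0.821 between the RPF and total RNA library of the same culture, the best match for 8 of 8, so the TE fit with a culture term is paired. Scripts were tested on simulated data. RefSeq (GRCm38.p6) gave 61 of 62 members 1 gene each. Hist1h2ap matched 2 genes, and Hist1h2al is annotated there as a transcribed pseudogene. Alternatives were other filters, pseudocounts of 0.5 and 5, other scalings, count models of the recovered reads (DESeq2 1.42.0, edgeR 4.0.16), blocks, and leaving out each culture. Nothing says that replicates of WT came from separate thaws, so p-values measure the spread between these samples.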

Additional observations from a re-analysis of the deposited data

How the results depend on the processing

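Ranges here are for leaving out 1 Nat1-/- or Nat1+/- line, with the percent of all genes called either way in parentheses. In total RNA 25 to 40 members were called for Nat1-/- against Nat1+/- (25.9% to 45.1%). For Nat1-/- against WT 12 to 18 were called (26% to 37.5%), and for Nat1+/- against WT 0 to 1 (1.35% to 7.67%). In RPF the count was 6 to 18 for Nat1-/- against Nat1+/- (21.4% to 41.5%). It was 5 to 17 for Nat1-/- against WT (23.5% to 38.9%) and 0 to 3 for Nat1+/- against WT (0.641% to 9.13%). In TE it was 0 to 2 for Nat1-/- against Nat1+/- (0.0464% to 2.91%) and 0 for both comparisons with WT (0% to 0.0387%). For Nat1+/- against WT in RPF, 1 member was called in the fit of all cultures and 2 by edgeR (1374 of 13110 genes in each). The count was 2 at a mean of at least 50 (11.9%), with a pseudocount of 5 (11.5%) and with equal library sums (10.3%). DESeq2 called 5 (19.2%), the fit of 2 genotypes only called 10 (20.1%), and no variance trend called 0 (3.67%). In total RNA the count of 2 (10% of all genes) became 1 without a filter (5.29%) and 0 without a variance trend (3.97%). It became 11 by DESeq2 (18.5%) and 12 with 2 genotypes only (20%). For Nat1-/- against WT, no variance trend called 5 members in RPF (31.2% of all genes) and 9 in total RNA (31.9%). The fit of 2 genotypes only called 5 (31.1%) and 9 (31.7%), and equal library sums called 13 (32.7%) and 23 (34.4%). With those sums the higher genes made up 36.29% of all RPF calls against WT, not 47.45%, and 34.3% of total RNA calls, not 46.10%. With equal library sums the median of all genes in total RNA was -0.114 for Nat1+/- against WT, not -0.024. For Nat1-/- against WT it was -0.097, not 0.022, in total RNA and -0.077, not 0.029, in RPF. The cause of these shifts was not tested.

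DESeq2 called 4 members in TE of Nat1-/- against Nat1+/- (2.99% of all genes), and the replicate block, here the culture, called 12 (15.8%). Numbers shared across genotypes did not pair the samples of all 3 genotypes (r of deviations -0.133 to 0.278 in RPF and -0.191 to 0.338 in total RNA). Every pair with a Nat1+/- line was below 0. Nat1-/- and WT replicate 1 had the highest r, and Nat1-/- and WT replicate 2 had 0.0996 in RPF and 0.175 in total RNA. A replicate block on the shared numbers left 0 members called for Nat1+/- against WT in RPF (1.24% of all genes) and 0 in total RNA (1.38%). The other counts in RPF and total RNA stayed within 1.5 times.

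Signs reversed for genes that were not called. In RPF of Nat1-/- against Nat1+/-, equal library sums gave log2 fold changes of -0.017 for Hist1h4d, -0.071 for Hist2h2bb and -0.042 for Casp8ap2, edgeR gave 0.0014 for Hist1h3a and -0.0057 for Hist2h2bb, and DESeq2 gave 0.027 for Hist1h3a. With 1 culture left out, Hist1h4d ranged over -0.048 to 0.25, Hist2h2bb over -0.14 to 0.13, Casp8ap2 over -0.052 to 0.13, Hist1h3a over -0.59 to 0.40 and Hist1h1d over -0.000465 to 0.19. In total RNA Casp8ap2 was at 0.072 with TMM and over -0.040 to 0.055 with 1 culture left out, and Slbp over -0.094 to 0.33. In TE of Nat1-/- against WT, Hist1h3i ranged over -0.050 to 0.69, lowest without WT replicate 2. An alternative added after seeing the data kept cultures with shallow total RNA libraries only. It called 1 member higher and 32 lower in total RNA, where 30.4% of all genes were called either way. In RPF 1 was higher and 14 lower, where 27.7% of genes were called. In TE 0 were called (0.0464% of genes), with 11 members at an unadjusted p under 0.05 by limma. Hist1h1d was at -0.000465 and Hist2h2bb at -0.14 in RPF, and Slbp at -0.094 in total RNA. Over all alternatives for single named members, 871 values kept their sign and side of the threshold, 57 lost a call, 26 gained one and 14 turned sign.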
